A study of Mus musculus with 18 samples.

Results

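The genes described here are 40 immediate early and activation genes, chosen by symbol to cover the AP-1, EGR, NR4A and DUSP families and other fast-induced genes. Each of the 40 symbols matched an Ensembl gene ID of GENCODE M21 (mouse build GRCm38) among the 56748 IDs that were counted, and all 40 were among the 13690 genes that passed edgeR's filter on low counts. RNA was sequenced from freshly isolated CD8 T cells that had been sorted by flow cytometry (FACS) from the spleens of wild-type mice on 3 diets, with 6 libraries per diet. Mice of the ND group had 12 weeks of normal diet, those of the HFD group 12 weeks of high fat diet, and those of the SW group (switched diet) 6 weeks of high fat diet before 6 weeks of normal diet. The labels give neither strain nor age. They also leave unsaid whether each library is from its own mouse, and the p-values therefore measure only the spread among these samples, which may be technical.

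Immediate early genes are transcribed soon after a signal reaches the nucleus, without need of new protein, because the factors that switch them on (SRF with its partners, CREB, NFAT and NF-kB) are already present. Many encode transcription factors, and many others encode the brakes of the same response: phosphatases that turn off MAP kinases, and RNA-binding proteins that destroy the short-lived messages. In CD8 T cells these genes mark recent signalling through the antigen receptor or cytokines, and several of them are also known to be induced while cells are taken out of a tissue.

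The libraries held 11947339 to 16398340 counts each, and the 40 genes together took 0.375% to 0.651% of them. The highest of these shares was in HFD replicate 4, a library that also stood apart in having 17570 genes with a count, against 18963 to 20155 in the others, and in the highest summed level of the B cell (670 CPM), plasma cell (23.6 CPM) and erythroid (329 CPM) markers. CPM here are counts scaled to a common library size after TMM normalisation. The 6 CD8 T cell markers summed to between 5061 and 5660 CPM in every library. The 3 CD4 T cell markers summed on average to 8.45 CPM in ND, 7.12 CPM in SW and 8.24 CPM in HFD. Most of that sum was Zbtb7b, at a mean of 7.22 CPM in ND, 5.62 CPM in SW and 6.30 CPM in HFD. Cd4 itself averaged 0.274 CPM in ND, 0.510 CPM in SW and 0.835 CPM in HFD, and Foxp3 0.955, 0.998 and 1.10 CPM. The 6 B cell markers summed to 474 to 523 CPM in ND, 499 to 600.4 CPM in SW and 518 to 670 CPM in HFD. The 7 myeloid markers summed to 8.27 to 14.2 CPM in ND, 9.20 to 18.8 CPM in SW and 14.8 to 23.0 CPM in HFD, the 5 erythroid markers to 14.0 to 39.8 CPM, 29.0 to 82.7 CPM and 11.4 to 329 CPM, and none of the markers of any list was at 0 in every library. The part of other cells in the values below was not tested. In bulk RNA, fewer cells that express a gene and less RNA of it per cell cannot be told apart.

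Most of the 40 genes were readily detected in these freshly isolated cells. By the median over 18 libraries of the deposited FPKM, a level per length of transcript, 36 of the 40 reached 1 FPKM, 23 reached 10 FPKM and 4 reached 100 FPKM. The top 4 were Junb, an AP-1 subunit, at 255 FPKM, Btg1, an antiproliferative factor of resting lymphocytes, at 189 FPKM, Dusp2, a nuclear phosphatase of MAP kinases, at 172 FPKM, and Ier2, a nuclear immediate early protein, at 133 FPKM. The other AP-1 genes with a median over 40 FPKM were Jund (90.5 FPKM), Fos (78.4 FPKM) and Jun (44.0 FPKM). Egr1, a zinc finger factor induced by receptor signalling, had 13.9 FPKM, against 5.51 FPKM for Egr3 and 3.73 FPKM for Egr2. Of the orphan nuclear receptors, Nr4a1 had 9.70 FPKM, Nr4a3 2.80 FPKM and Nr4a2 0.804 FPKM. The lowest were Maff (0.606 FPKM), Atf3 (0.530 FPKM) and Dusp4 (0.396 FPKM), the last with 6 to 30 counts per library, so that its fold changes carry a large counting error.

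**Figure D1:**
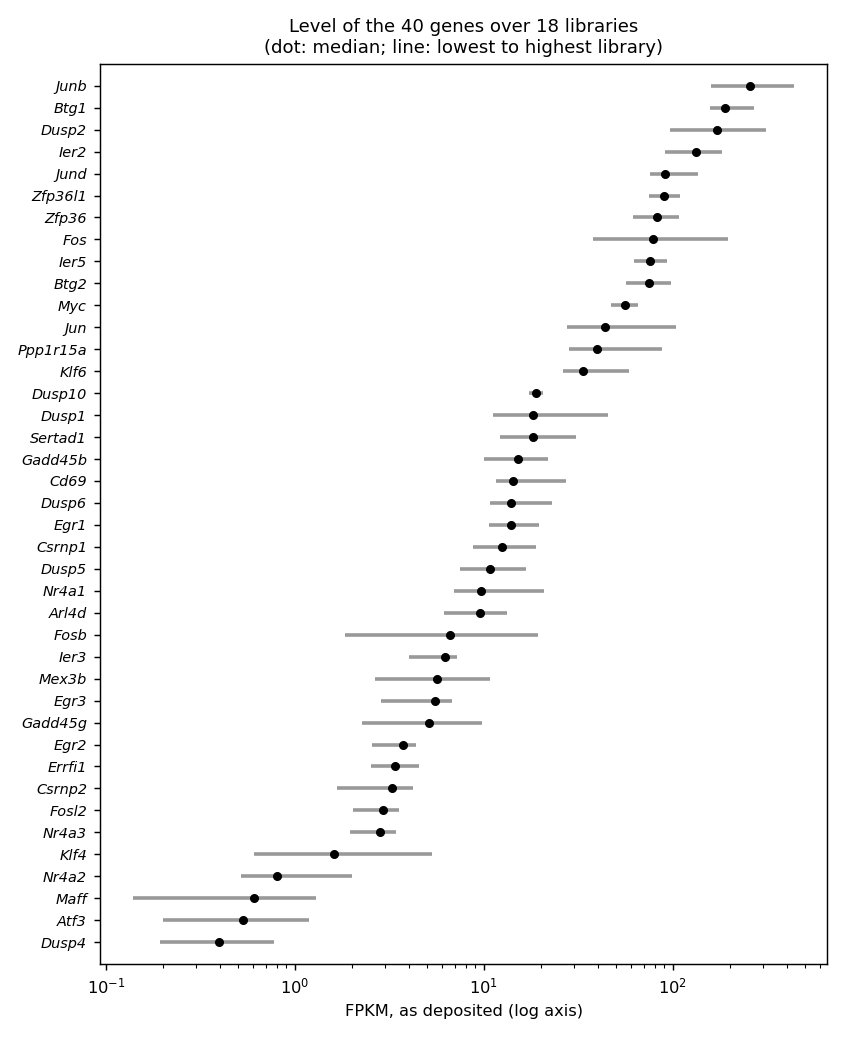
Level of each of the 40 genes in FPKM as deposited (log axis), with the median (dot) and the lowest to highest of 18 libraries (line). Junb, Btg1, Dusp2 and Ier2 lie above 100 FPKM, Dusp4, Atf3, Maff and Nr4a2 below 1 FPKM, and the lines of Fosb, Klf4 and Maff are among the longest.

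The genes differed widely in how much they varied between libraries of the same diet. The median SD of log2 CPM within a diet was 0.272 over the 40 genes and 0.175 over all 13690 genes, and 6 of the 40 were in the top 10% of all genes: Fosb (0.951), Klf4 (0.819), Atf3 (0.733), Fos (0.683), Maff (0.640) and Jun (0.638). Maff and Atf3 had few counts (5 to 41 and 6 to 38 per library), which adds to their SD. Fos ran from 86.0 to 447 CPM, a 5.19-fold range, and Fosb from 11.2 to 117 CPM. At the other end, Dusp10, a phosphatase of the JNK and p38 kinases, ran only from 50.9 to 60.5 CPM, with an SD of 0.069. Ier5, Myc, Errfi1, Zfp36l1 and Btg2 also had an SD under the median of all genes.

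Promoters are shown for 4 genes, Fos and Junb because they moved together between libraries, and Mex3b and Arl4d because they were among the genes that differed among the diets. The sequences are the 200 bases before the RefSeq start site (GRCm38.p6), written 5′ to 3′ on the strand of the gene, with the CRE core (TGACG, either strand) and the whole CRE (TGACGTCA), the sites known for CREB and ATF factors, in capitals. They lie at chr12:85473690-85473889 (plus strand) for Fos, chr8:84978749-84978948 (minus strand) for Junb, chr7:82867133-82867332 (plus strand) for Mex3b and chr11:101665341-101665540 (plus strand) for Arl4d, and none of their bases is in an exon of GENCODE M21.
Fos: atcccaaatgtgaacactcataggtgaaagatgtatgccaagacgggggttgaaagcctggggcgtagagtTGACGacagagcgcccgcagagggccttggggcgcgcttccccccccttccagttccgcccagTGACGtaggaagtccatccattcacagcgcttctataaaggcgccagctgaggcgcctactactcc
Junb: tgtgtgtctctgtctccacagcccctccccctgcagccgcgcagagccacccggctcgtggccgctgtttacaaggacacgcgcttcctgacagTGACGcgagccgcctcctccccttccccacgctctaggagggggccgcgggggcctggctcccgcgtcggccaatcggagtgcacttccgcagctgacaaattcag
Mex3b: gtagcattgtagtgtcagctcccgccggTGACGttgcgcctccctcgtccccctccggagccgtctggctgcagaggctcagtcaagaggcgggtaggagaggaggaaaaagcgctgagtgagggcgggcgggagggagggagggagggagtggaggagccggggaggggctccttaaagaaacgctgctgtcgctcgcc
Arl4d: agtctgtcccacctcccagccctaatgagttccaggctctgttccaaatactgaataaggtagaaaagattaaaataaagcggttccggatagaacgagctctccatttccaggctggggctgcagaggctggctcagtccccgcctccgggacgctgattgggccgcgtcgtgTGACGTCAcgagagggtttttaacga

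The RefSeq table held a promoter for 34 of the 40 genes; Egr1, Egr3, Ier2, Dusp4, Myc and Cd69 are the others. In the 250 bases before the start, searched on both strands, the whole CRE was in 6 of the 34 (17.6%: Arl4d, Btg2, Dusp1, Errfi1, Maff and Ppp1r15a) and in 1.77% of the 27025 genes of the table. The CRE core (TGACG), which each whole CRE contains, was in 19 of the 34 (55.9%) and in 19.8% of all. All 4 genes printed above have the core, but others like them do not. Of the 5 genes called for any difference among the diets (below), 3 had it, and Csrnp2 and Sertad1 did not. Of Fos and the genes with r over 0.8 with it (below), 7 of the 11 with a promoter had it. Jun, Jund, Ier5 and Zfp36 did not. The CArG box, the site of SRF, was in 3 of the 34 (8.82%: Dusp5, Egr2 and Zfp36) and in 1.62% of all. The AP-1 site (TGAGTCA) was found only for Csrnp1 among the 34 (2.94%, against 5.16% of all) and the EGR site (GCGTGGGCG) only for Maff (2.94%, against 0.622%). These are matches of letters in a window, not measured sites.

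Many of the 40 genes varied together from library to library within each diet. After the mean of each diet was removed from log2 CPM, the median Pearson r over the 780 pairs of the genes was 0.262, and 32.8% of the pairs exceeded 0.5. Over pairs of all tested genes the median was -0.001 with 5.49% above 0.5, and between the 40 genes and all others it was -0.003 with 5.31% above 0.5. Pairs of genes are not independent, since all share the same 18 libraries, so these values are a description with no test. Within replicates 3 to 6 of each diet alone, 12 libraries, the median was 0.404, with 41.3% of the pairs above 0.5 against 8.15% of all pairs. Replicates 1 and 2 alone are too few for a value.

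A group of genes varied closely with Fos, the gene taken as reference. Fos had 124, 163 and 301 CPM (lowest, median and highest library) in ND, 86.0, 170 and 379 CPM in SW, and 141, 182 and 447 CPM in HFD. The libraries with the most Fos were ND 3 (301 CPM), SW 3 (297 CPM), SW 4 (379 CPM), HFD 3 (321 CPM) and HFD 4 (447 CPM), and in all other libraries Fos had at most 224 CPM. Each diet thus had libraries with high and with low Fos, and the groups overlapped fully.

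With Fos, 11 of the other 39 genes had r over 0.8, against 12 of the 13650 tested genes outside the 40 (0.0879%). They were its AP-1 partners Jun (0.940), Fosb (0.928), Junb (0.913) and Jund (0.884), the bZIP factor Atf3 (0.832) and the zinc finger factor Klf4 (0.882). Ier2 (0.864), Ier5 (0.857) and 3 others made up the rest. Of these 3, Zfp36 (0.943), which encodes the mRNA-destroying protein tristetraprolin, and Dusp1 (0.916), a MAP kinase phosphatase, are brakes of the response. Ppp1r15a (0.941) encodes the stress protein GADD34. Among the pairs of these 12 genes, Fos included, r lay between 0.650 and 0.962 with a median of 0.877. The genes were picked by their r with Fos in these same libraries, so high r among them follows largely from that choice. Jun, for example, had 305 CPM in ND 3 and 92.1 CPM in ND 6, and 323 CPM in HFD 4 and 102 CPM in HFD 6. Dusp1 had 91.2 CPM in ND 3 and 39.6 CPM in ND 6, and 145 CPM in HFD 4 and 40.9 CPM in HFD 1.

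For 16 pairs with Fos, r was tested by permutation within diets (100000 resamples, two-sided, Benjamini-Hochberg over the 16; n = 18), and it was computed again without SW 4 and HFD 4, the 2 libraries farthest from the median of Fos. Junb had r = 0.913 and rho = 0.944 (permutation p = 1e-05 for each, the smallest the resamples can give; adjusted p = 2.3e-05 and 3.2e-05), and r = 0.895 without the 2 libraries. For Jun, r was 0.940 and rho 0.897 (permutation p = 1e-05 each, adjusted p = 2.3e-05 and 3.2e-05), with r = 0.913 without them. Fosb, Jund, Ier2, Dusp1, Zfp36 and Ppp1r15a also had r of at least 0.864 with adjusted permutation p of at most 4e-05 for r, and r between 0.806 and 0.922 without the 2 libraries. Nr4a1 was less closely tied to Fos over all libraries (r = 0.682, rho = 0.736, permutation p = 0.0025 and 0.0016, adjusted p = 0.0044 and 0.0029; r = 0.660 without the 2 libraries) and had r = 0.913 within replicates 3 to 6.

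Other fast genes did not follow Fos in this way. Egr1 had r = 0.517 and rho = 0.509 (permutation p = 0.04 and 0.044, adjusted p = 0.064 for both), with r = 0.754 without SW 4 and HFD 4, since HFD 4, the library with most Fos, had the lowest Egr1 of its diet (53.2 CPM). Cd69, an early surface marker of activation that holds T cells in tissue, had r = 0.474 and rho = 0.548 (permutation p = 0.064 and 0.034, adjusted p = 0.092 and 0.055). Klf6 had r = 0.312 and rho = 0.255 (permutation p = 0.24 and 0.35, adjusted p = 0.28 and 0.43), with r = 0.107 without the 2 libraries and 0.676 within replicates 3 to 6. Btg2, an antiproliferative gene induced by p53, had r = -0.413 and rho = -0.459 (permutation p = 0.14 and 0.096, adjusted p = 0.19 and 0.13).

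In all, 21 of the 39 genes had r over 0.5 with Fos (6.49% of the genes outside the 40 did), and 9 (23.1%) were below 0, where 50.3% of the genes outside the 40 were: Btg2 (-0.413), Egr3 (-0.339), Dusp4 (-0.287), Fosl2 (-0.248), Csrnp2 (-0.244), Mex3b (-0.205), Ier3 (-0.199), Egr2 (-0.078) and Dusp10 (-0.042). The heat shock genes Hspa1a (r = -0.186), Hspa1b (r = -0.338) and Dnajb1 (r = 0.009), which encode chaperones induced by protein damage, gave permutation p-values for r from 0.22 to 0.98 (adjusted p from 0.27 to 0.98). Within replicates 3 to 6 their r was 0.662, 0.171 and 0.389. The labels give no time or temperature of cell isolation, and its part in the co-variation was not tested.

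**Figure D2:**
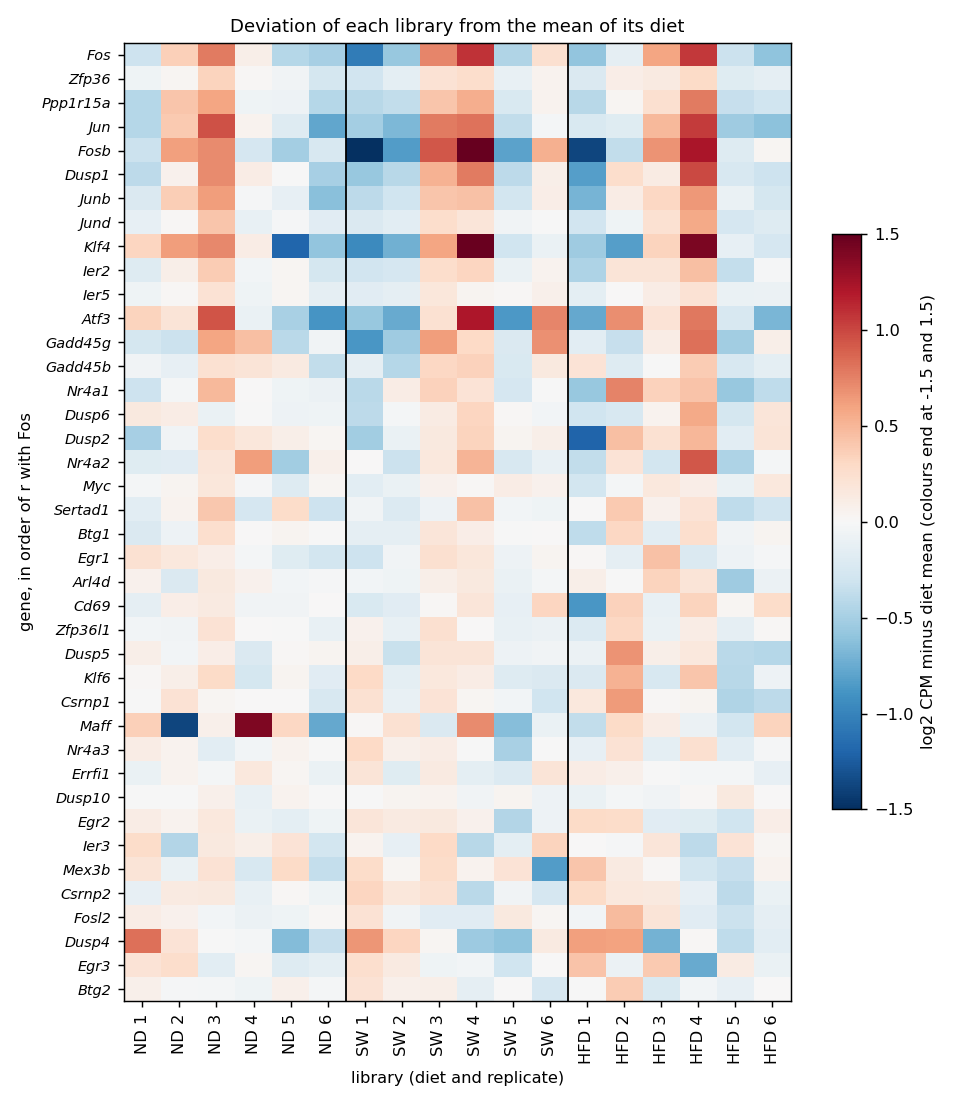
Deviation of log2 CPM from the mean of the diet, for the 40 genes (in order of r with Fos) and the 18 libraries (black lines part the diets); red is higher, blue lower. The block of genes from Fos to Atf3 is red or pale red in ND 3, SW 3, SW 4, HFD 3 and HFD 4 together, while genes at the foot of the plot do not follow it.

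**Figure D3:**
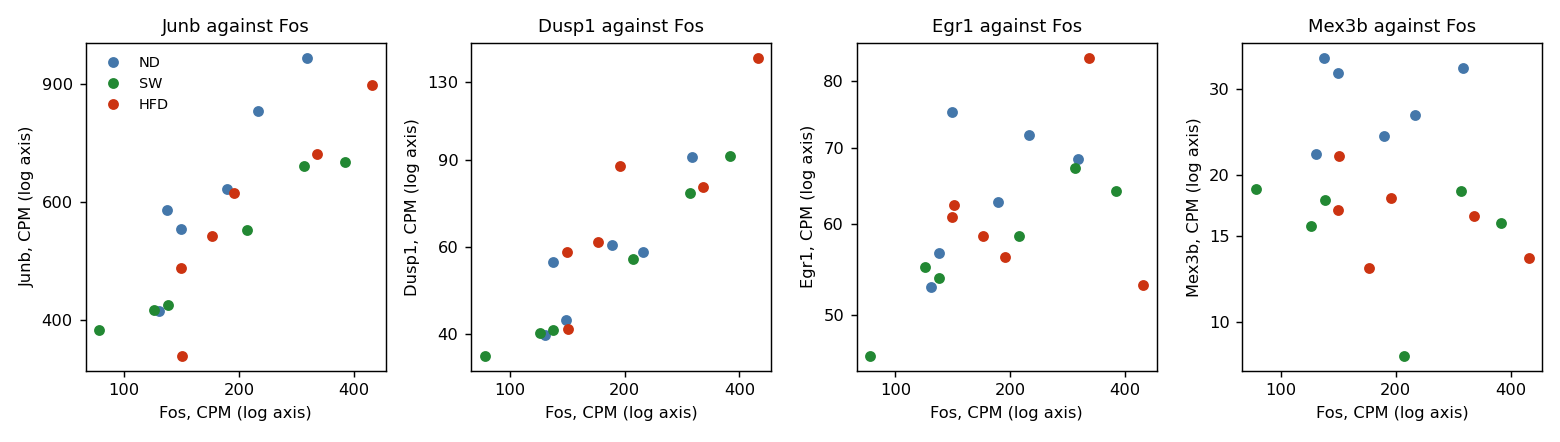
Junb, Dusp1, Egr1 and Mex3b against Fos, each point 1 library, in CPM on log axes, coloured by diet. Junb (r = 0.913) and Dusp1 (r = 0.916) lie along a line that the 3 diets share, Egr1 (r = 0.517) scatters around one, and for Mex3b (r = -0.205) all ND libraries lie above all SW and HFD libraries, at low and at high Fos.

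The 5 tested genes outside the 40 that were most like the mean of the 17 AP-1, EGR, NR4A and IER members, over 18 libraries with the diet mean removed, were Hist1h1c (r = 0.880), Rgs2 (0.869), Tulp2 (0.852), Frat2 (0.833) and Hspa5 (0.828). Tulp2 shares 717 bases with Ppp1r15a on the other strand, and the labels do not say whether the libraries keep strand, so their reads cannot be told apart there. The same limit holds for Junb with Prdx2 (351 bases) and Dusp1 with Ergic1 (640 bases), and Csrnp1 lies within the annotated span of Cx3cr1.

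Between diets few of the 40 genes were called, and those called in HFD against ND were lower in HFD. Differences were tested with edgeR's quasi-likelihood F test over all 13690 genes, with Benjamini-Hochberg adjustment and a threshold of 0.05 for a call. The adjusted p-values below are from that fit unless another is named, and changes are on the log2 scale with their standard error (SE). A library is counted as lower or higher than ND by its place against the ND mean. In HFD against ND, 2 of the 40 genes were called, Csrnp2 and Mex3b, both lower, where 1.62% of all genes were called and 0.957% were called lower. The groups did not overlap and HFD was lower for 3 of the 40 (Csrnp2, Errfi1 and Mex3b; 1.00% of all genes), and the reverse held for none of them (0.672% of all genes). At an unadjusted p under 0.05, 12 of the 40 (30%) differed, 4 higher and 8 lower in HFD, against 14.9% of all genes, 7.79% higher and 7.09% lower. The median log2 change of the 40 was -0.004, and 0.008 over all genes. DESeq2 called 7 of the 40, 1 higher (Cd69) and 6 lower (Csrnp2, Mex3b, Sertad1, Errfi1, Gadd45b and Arl4d), and 3.57% of all genes.

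In SW against ND edgeR called 0 of the 40 (0.0146% of all genes), and 9 of the 40 (22.5%) had an unadjusted p under 0.05, against 6.81% of all genes. All 9 were lower in SW, which 3.37% of all genes were: Mex3b, Sertad1, Arl4d, Gadd45b, Errfi1, Ier2, Btg2, Csrnp2 and Ier5. SW lay wholly below ND for 3 of the 40 (Mex3b, Arl4d and Errfi1; 0.416% of all genes). The median change of the 40 was -0.115, and 0.002 over all genes. DESeq2 called 4 of the 40, all lower (Mex3b, Sertad1, Errfi1 and Arl4d), and 0.516% of all genes. Both comparisons use the same ND libraries, so a shared direction in them is not independent.

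In SW against HFD edgeR called 0 of the 40 (0.124% of all genes), and 4 of the 40 (10%) had an unadjusted p under 0.05, near the 11.1% of all genes. Csrnp2 was higher in SW, at 0.53 ± 0.13 (SE; adjusted p = 0.0806), and Cd69 (-0.66 ± 0.16, adjusted p = 0.138), Klf6 (-0.43 ± 0.16) and Zfp36 (-0.23 ± 0.11) were lower. DESeq2 called Csrnp2 and Cd69, and 0.818% of all genes. In the test for any difference among the 3 diets, 5 of the 40 were called (Csrnp2, Mex3b, Sertad1, Errfi1 and Arl4d), against 0.898% of all genes.

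**Figure D4:**
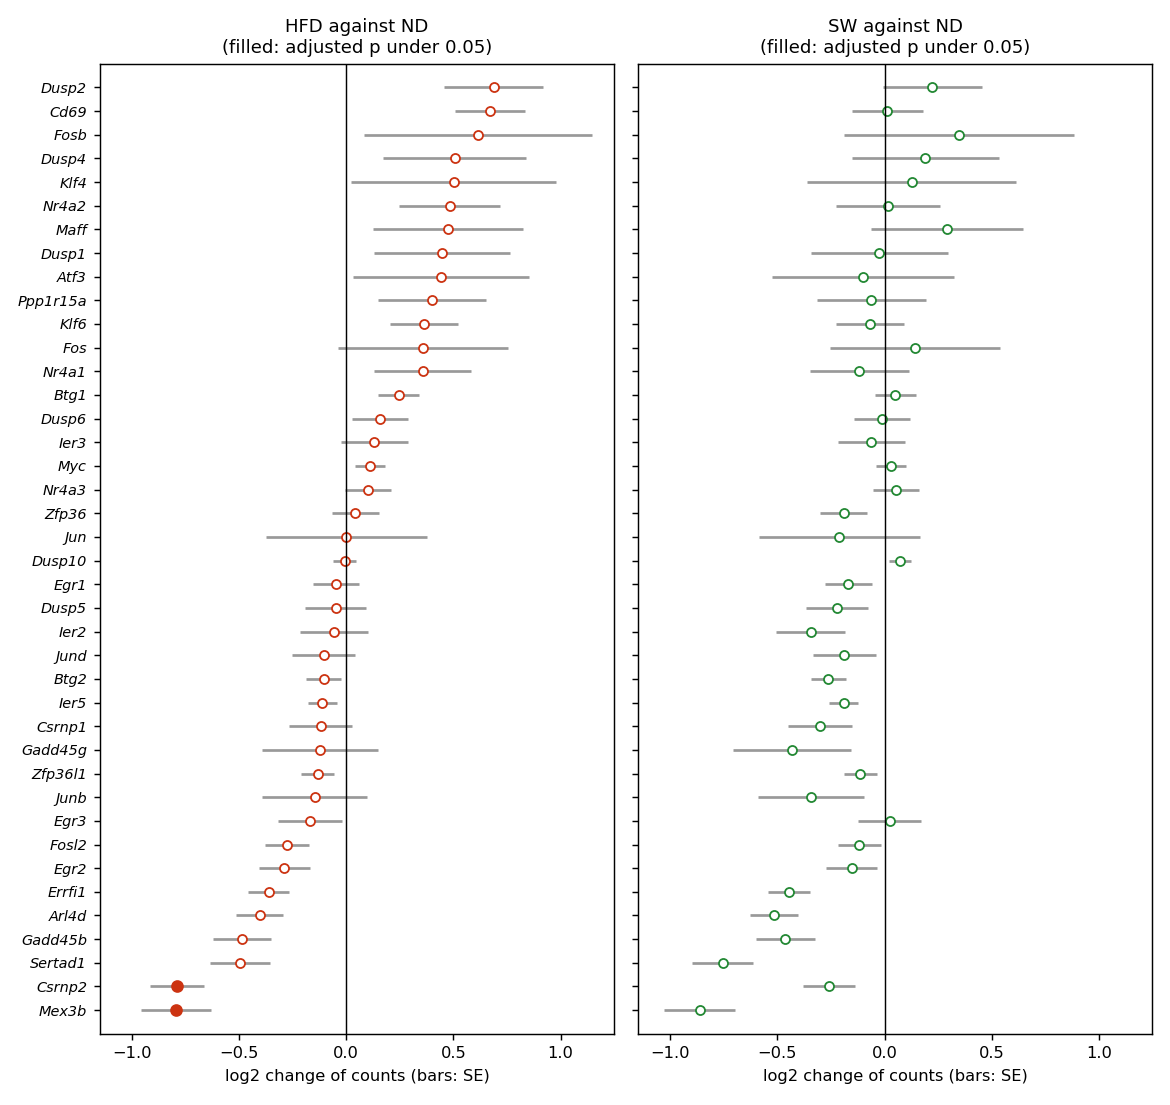
Log2 change of the 40 genes in HFD against ND (left) and SW against ND (right), in the order of the left panel, with SE bars; filled points have an adjusted p under 0.05. Mex3b and Csrnp2 are filled at -0.80 and -0.79 on the left, no point is filled on the right, and the 2 panels share the ND libraries.

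Csrnp2 (chr15:100479570-100495488, minus strand), which encodes a cysteine- and serine-rich nuclear protein, fell in HFD. It had 14.8, 15.9 and 17.95 CPM (lowest, median and highest library) in ND, 10.01, 14.0 and 16.7 CPM in SW, and 7.07, 9.50 and 11.4 CPM in HFD. Every HFD library lay below every ND library, while SW overlapped both. The mean was 16.2 ± 1.37 CPM (SD, n = 6) in ND and 9.40 ± 1.58 CPM in HFD, a change of -0.79 ± 0.125 (SE; adjusted p = 0.00211, lower in 6 of 6 libraries). In SW, at 13.6 ± 2.64 CPM, the difference from ND was -0.26 ± 0.12 (adjusted p = 0.717, lower in 5 of 6). The call in HFD held in each of the 18 fits that left out 1 library (adjusted p from 0.000392 to 0.0107) and within replicates 3 to 6 (-0.92, adjusted p = 0.000682). Its relative Csrnp1 differed by -0.12 ± 0.15 in HFD and -0.30 ± 0.15 in SW (adjusted p = 0.766 and 0.743).

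Mex3b (chr7:82867333-82871515, plus strand), which encodes an RNA-binding protein with KH domains that acts on messages after transcription, fell in HFD and had a like level in SW. It had 22.1, 29.6 and 34.9 CPM in ND, 8.53, 16.9 and 18.7 CPM in SW, and 12.9, 16.8 and 21.9 CPM in HFD. The highest SW and HFD libraries were both below the lowest ND library, and SW and HFD overlapped. From 28.9 ± 5.31 CPM (SD, n = 6) in ND to 16.6 ± 3.24 CPM in HFD the change was -0.80 ± 0.16 (SE; adjusted p = 0.0179, lower in 6 of 6). In SW, at 15.9 ± 3.83 CPM, the difference from ND was -0.86 ± 0.17 (adjusted p = 0.0704, lower in 6 of 6), and that between SW and HFD was -0.07 ± 0.17 (adjusted p = 0.919). The HFD call held in each of the 18 fits without 1 library (adjusted p from 0.00137 to 0.0475) but not within replicates 3 to 6, where the value was -0.93 with an adjusted p of 0.0767.

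Sertad1, Errfi1 and Arl4d were called for a difference among the diets but in no single comparison by edgeR with diet as the only factor. With replicates 1 and 2 against 3 to 6 as a further factor, Errfi1 and Arl4d were called lower in HFD and Arl4d in SW. That fit called 535 genes in all in HFD against ND and 22 in SW against ND, where 222 and 2 were called with diet alone. No label names this split. Same-numbered libraries of 2 diets had correlations of 0.119 to 0.219 for replicates 1 and 2, and -0.031 to 0.124 for replicates 3 to 6. What the split marks was not tested. Sertad1, a regulator of CDK4 and of E2F-driven transcription, had 24.5, 29.4 and 40.3 CPM in ND, 15.8, 17.5 and 24.7 CPM in SW, and 16.6, 22.2 and 28.4 CPM in HFD. Among the SW libraries only SW 4, at 24.7 CPM, reached the ND range, and among the HFD libraries HFD 2 and HFD 4 did. It averaged 31.04 ± 6.44 CPM (SD, n = 6), 18.4 ± 3.15 CPM and 22.0 ± 4.43 CPM, with differences from ND of -0.76 ± 0.14 in SW (SE; adjusted p = 0.0634) and -0.50 ± 0.14 in HFD (adjusted p = 0.0720; any difference adjusted p = 0.0174).

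Errfi1, also named Mig6, an inhibitor of EGF receptor family kinases, had 13.1, 14.0 and 15.7 CPM in ND, 8.91, 10.3 and 11.8 CPM in SW, and 10.02, 10.8 and 11.8 CPM in HFD. All SW and HFD libraries were below all ND libraries. The mean was 14.1 ± 1.02 CPM (SD, n = 6) in ND, 10.3 ± 1.39 CPM in SW and 10.9 ± 0.651 CPM in HFD, with differences of -0.45 ± 0.10 in SW (SE; adjusted p = 0.113) and -0.36 ± 0.10 in HFD (adjusted p = 0.0521; any difference adjusted p = 0.0337). Arl4d, a small GTPase of the ARF family, had 13.8, 16.3 and 17.8 CPM in ND, 10.5, 11.0 and 12.5 CPM in SW, and 8.21, 12.4 and 15.2 CPM in HFD. SW was below ND in every library, and HFD overlapped both. Its means were 16.1 ± 1.37 CPM, 11.3 ± 0.768 CPM and 12.2 ± 2.37 CPM, with differences of -0.51 ± 0.11 in SW (adjusted p = 0.113) and -0.40 ± 0.11 in HFD (adjusted p = 0.0575; any difference adjusted p = 0.0337). In fits without 1 library the call for any difference held in 17 of 18 for Sertad1, and in 11 of 18 for each of Errfi1 and Arl4d. Within replicates 3 to 6 none of the 3 was called (adjusted p = 0.130, 0.0797 and 0.0877).

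Cd69 had a higher mean in HFD. It had 78.3, 84.8 and 94.7 CPM in ND, 73.6, 83.4 and 108 CPM in SW, and 72.3, 147 and 169 CPM in HFD. HFD 1, at 72.3 CPM, was below all ND libraries, and the other HFD libraries, at 122 to 169 CPM, were above all ND and SW libraries. The mean was 86.4 ± 6.19 CPM (SD, n = 6) in ND, 87.2 ± 13.5 CPM in SW and 138 ± 37.0 CPM in HFD, and the difference of 0.67 ± 0.16 (SE) in HFD just missed the threshold (adjusted p = 0.0505, higher in 5 of 6). Leaving out 1 library at a time made it pass in 2 cases of 18, SW 6 and HFD 1. Without HFD 1 it was 0.80 with an adjusted p of 7.65e-05, and within replicates 3 to 6 it was 0.74 with an adjusted p of 0.00297. Replicate 1 was also the lowest library of its diet in ND (78.3 CPM) and SW (73.6 CPM), and the fit with the replicate sets as a factor called Cd69 in HFD against ND. HFD 1 had the highest summed dendritic cell (80.2 CPM) and CD4 T cell (11.9 CPM) markers of all libraries, with ND 1 close to it in CD4 markers (11.8 CPM) and highest of ND in dendritic markers (54.0 CPM), and their part in the result was not tested. In SW the difference was 0.01 ± 0.17 (adjusted p = 0.999).

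**Figure D5:**
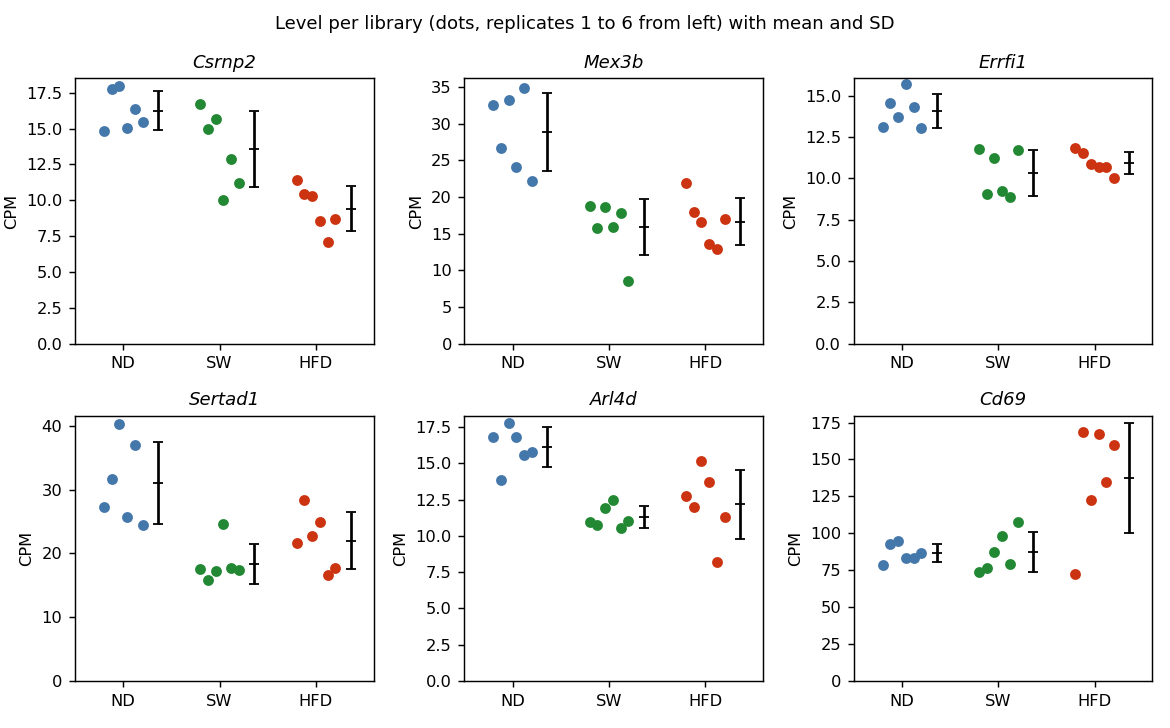
CPM of Csrnp2, Mex3b, Errfi1, Sertad1, Arl4d and Cd69 in each library (dots, replicates 1 to 6 from left) with mean and SD per diet (black). HFD lies wholly below ND for Csrnp2, Mex3b and Errfi1, SW wholly below ND for Mex3b, Errfi1 and Arl4d, and for Cd69 all HFD libraries except HFD 1 (72.3 CPM) lie above ND.

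By role, the AP-1 and bZIP genes had wide errors and none of the 8 was called between diets by edgeR with all 18 libraries or by DESeq2. Fos averaged 184 ± 68.9 CPM (SD, n = 6) in ND, 204 ± 115 CPM in SW and 236 ± 123 CPM in HFD, with differences from ND of 0.36 ± 0.40 in HFD and 0.14 ± 0.40 in SW (SE; adjusted p = 0.733 and 0.998). Jun averaged 170 ± 76.9 CPM, 147 ± 69.3 CPM and 170 ± 85.8 CPM, with differences of 0.001 ± 0.37 and -0.21 ± 0.38 (adjusted p = 0.9995 and 0.994). Junb, the most abundant, averaged 663 ± 206 CPM, 522 ± 136 CPM and 599 ± 190 CPM, with differences of -0.15 ± 0.25 and -0.34 ± 0.25 (adjusted p = 0.840 and 0.895). Fosl2, a FOS relative with steadier levels, was 0.28 ± 0.10 log2 lower in HFD (unadjusted p = 0.0115, adjusted p = 0.179). It was called only in the edgeR fit without HFD 2 (-0.392, adjusted p = 0.0326).

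The EGR and NR4A genes, both induced by antigen receptor signalling, were not called either. Egr1 averaged 64.6 ± 8.73 CPM (SD, n = 6) in ND, 57.5 ± 7.61 CPM in SW and 62.5 ± 11.0 CPM in HFD, with differences of -0.05 ± 0.11 in HFD and -0.17 ± 0.11 in SW (SE; adjusted p = 0.883 and 0.860), and Egr2 was -0.29 ± 0.12 in HFD (adjusted p = 0.237). Nr4a1 averaged 34.6 ± 6.82 CPM, 31.8 ± 6.07 CPM and 44.3 ± 17.5 CPM, with differences of 0.36 ± 0.23 and -0.12 ± 0.23 (adjusted p = 0.499 and 0.995). Of the IER genes, Ier2 (-0.34 ± 0.16, adjusted p = 0.728) and Ier5 (-0.19 ± 0.07, adjusted p = 0.487) were lower in all 6 SW libraries than the ND mean.

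Among the 6 MAP kinase phosphatases, Dusp2 had the largest difference. It had 198, 292 and 337 CPM in ND, 227, 341 and 412 CPM in SW, and 186, 493.4 and 602 CPM in HFD. As with Cd69, HFD 1 held the lowest value of all libraries while the other HFD libraries were above all ND libraries. Replicate 1 was again also the lowest library of its diet in ND (198 CPM) and SW (227 CPM). The difference in HFD was 0.69 ± 0.23 (SE; adjusted p = 0.163), and it was called within replicates 3 to 6 (0.67, adjusted p = 0.0242) and without HFD 1 (0.84, adjusted p = 0.0109). Dusp1 averaged 58.1 ± 18.4 CPM (SD, n = 6) in ND, 57.1 ± 22.8 CPM in SW and 78.9 ± 36.5 CPM in HFD, with differences of 0.45 ± 0.32 and -0.02 ± 0.32 (adjusted p = 0.552 and 0.999). Dusp4, Dusp5, Dusp6 and Dusp10 had differences between -0.22 and 0.51 with an unadjusted p of 0.134 or more in either diet.

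Of the genes that act on messages or hold back division, Btg1 averaged 936 ± 99.8 CPM (SD, n = 6) in ND, 969 ± 83.4 CPM in SW and 1108 ± 195 CPM in HFD, with differences of 0.245 ± 0.095 in HFD and 0.05 ± 0.095 in SW (SE; adjusted p = 0.216 and 0.995). Btg2 was -0.26 ± 0.08 in SW (adjusted p = 0.362, lower in 6 of 6) and -0.105 ± 0.081 in HFD (adjusted p = 0.584). Zfp36 averaged 292 ± 40.4 CPM, 255 ± 38.6 CPM and 300.2 ± 43.1 CPM, with differences of 0.04 ± 0.11 and -0.19 ± 0.11 (adjusted p = 0.902 and 0.817), and its relative Zfp36l1 -0.13 ± 0.08 and -0.11 ± 0.08. Mex3b was thus the only called gene of the 5 in this group by edgeR with all 18 libraries and diet as the only factor. For any difference among the diets, Btg2 was called within replicates 3 to 6 (adjusted p = 0.021). Zfp36 was called for any difference with Fos as a covariate (adjusted p = 0.0473).

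The remaining genes are stress and growth regulators. Gadd45b, which activates stress kinases and responds to NF-kB, had 22.1, 29.5 and 33.7 CPM in ND, 15.3, 20.8 and 26.2 CPM in SW, and 17.2, 19.4 and 26.6 CPM in HFD. The groups overlapped, with SW 1, SW 2 and SW 5 and HFD 2, HFD 3, HFD 5 and HFD 6 below the ND range. The differences were -0.49 ± 0.14 in HFD (SE; adjusted p = 0.0670) and -0.46 ± 0.14 in SW (adjusted p = 0.326), lower in 6 of 6 libraries of each. Klf6 averaged 137 ± 18.7 CPM (SD, n = 6) in ND, 131 ± 19.6 CPM in SW and 176 ± 48.7 CPM in HFD, with differences of 0.36 ± 0.16 and -0.07 ± 0.16 (adjusted p = 0.298 and 0.996). Myc, a driver of growth on activation, averaged 142 ± 11.46 CPM, 145 ± 10.2 CPM and 154 ± 17.6 CPM, with differences of 0.11 ± 0.07 and 0.03 ± 0.07 (adjusted p = 0.466 and 0.996). Fosb, Jund, Atf3, Maff, Egr3, Nr4a2, Nr4a3, Ier3, Klf4, Gadd45g and Ppp1r15a had differences between -0.43 and 0.61 in either diet, none with an unadjusted p under 0.05.

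Since Fos and its group varied so much, the fit was repeated with the Fos log2 CPM of each library added to the model, leaving Fos itself out. This alternative was added once the values had been examined. Csrnp2 (-0.77 ± 0.12, adjusted p = 0.00246) and Mex3b (-0.77 ± 0.17, adjusted p = 0.0288) were called in HFD against ND as before. Gadd45b (-0.57 ± 0.10, adjusted p = 0.00478), Sertad1 (-0.56 ± 0.12, adjusted p = 0.0198) and Arl4d (-0.45 ± 0.11, adjusted p = 0.0302) were called lower in HFD as well, and Sertad1 (-0.76 ± 0.12, adjusted p = 0.0237) in SW. For any difference among the diets, 8 of the 40 were called with Fos in the model. Gadd45b (adjusted p = 0.00639), Ier2 (adjusted p = 0.0357) and Zfp36 (adjusted p = 0.0473) were among them and had not been called without Fos. Over all genes that fit called 233 in HFD against ND, where 222 were called without Fos, and 5 in SW against ND, where 2 were. For any difference it called 148, where 123 were called without Fos. The SE of Gadd45b went from 0.14 to 0.10 and that of Sertad1 from 0.14 to 0.12, while that of Csrnp2 was 0.125 in both fits.

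A list of 49 further genes of the same pathways was read beside the 40: bZIP partners, the SRF route, calcium and NFAT, NF-kB feedback with later activation genes, and heat shock genes. Of the 47 tested, 3 were called lower and none higher in HFD against ND, with 6 higher and 5 lower at an unadjusted p under 0.05 (23.4%, beside 1.62% called and 14.9% unadjusted over all genes). The 3 were Tnf, an inflammatory cytokine (-0.75 ± 0.16, adjusted p = 0.0173), Nfkbid, a nuclear inhibitor of NF-kB (-0.46 ± 0.07, adjusted p = 0.00211), and Mafk, a small MAF partner of bZIP factors (-0.25 ± 0.06, adjusted p = 0.0406). DESeq2 called the same 3 lower and, as higher, Tnfaip3, an inhibitor of NF-kB signalling (1.14 ± 0.29 and adjusted p = 0.0634 in edgeR), Jdp2, an AP-1 repressor (0.655 ± 0.18, adjusted p = 0.0558), and Irf4, a factor induced by antigen receptor signalling (0.58 ± 0.17, adjusted p = 0.0756). In SW against ND edgeR called only Tnf of the list, from 19.1 ± 4.85 CPM (SD, n = 6) in ND to 10.1 ± 1.62 CPM (-0.91 ± 0.16, SE; adjusted p = 0.0481), with 7 of the 47 lower and none higher at an unadjusted p under 0.05 (14.9%, against 6.81% of all genes), and DESeq2 called 2 lower (Nfkbid and Tnf). In SW against HFD edgeR called 0 of the 47, with 2 higher and 9 lower at an unadjusted p under 0.05 (23.4%, against 11.1% of all genes), and DESeq2 called 2 (Jdp2 and Tnfaip3, both lower in SW). The heat shock genes Hspa1a (3.03 ± 1.21) and Hspa1b (2.90 ± 1.23) had the widest differences in HFD, with adjusted p of 0.247 and 0.283 and an SD above the mean there (9.07 ± 17.5 CPM and 46.9 ± 102 CPM).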

How the data were processed

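RNA from CD8 T cells sorted from spleen was sequenced in 18 libraries, 6 for each of 3 diets. Per the labels' protocols, poly-T beads were used to select messenger RNA, and random hexamers to prime cDNA. The submitters' processing notes name fastp, GRCm38 and mm10. The aligner, the counter and its annotation were not given in the sources used here. Per library, the authors deposited raw counts per gene, which were the basis of all tests, and FPKM values, which were used only for levels between genes. Of 56748 gene IDs, 52125 matched GENCODE M21.

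Counts were tested with edgeR 4.0.16 (R 4.3.3): filterByExpr by diet, TMM factors, a robust quasi-likelihood fit of all 18 libraries with diet as the only factor, and Benjamini-Hochberg adjustment over 13690 genes. Levels are CPM from TMM library sizes; log2 CPM used a prior count of 2. Correlations are of deviations from the diet mean. The edgeR step was tested on simulated data. Totals of 11947339 to 16398340 counts limit precision for Dusp4, Atf3 and Maff. Without molecular identifiers, reads of the same molecule are not told apart. Alternatives were DESeq2 1.42.0, RLE factors, no low-count filter, a block for replicate number, replicates 1 and 2 against 3 to 6 as a factor, replicates 3 to 6 only, and leaving out each library; Fos as a covariate and leaving out both HFD 1 and HFD 4 were added after the data were seen.

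The 40 genes, the other lists and the tests were chosen with earlier results of these data known. Genes named in full were those called in any comparison and Fos, Jun, Junb, Egr1, Nr4a1, Dusp1, Btg1, Zfp36, Klf6, Myc, Cd69, Mex3b and Csrnp2; those with an unadjusted p under 0.05 are named with their change, the rest by range. Promoter sequences are from RefSeq (GRCm38.p6).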

Additional observations from a re-analysis of the deposited data

Results flagged for a closer look

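Levels of the 16 genes given in full were searched for libraries far from the others of their diet, in 48 groups of 6 libraries on the log2 CPM scale; chance marks about 1 group in 20, and 3 were marked. For Egr1, HFD 3 had 83.9 CPM against 62.4 CPM in the next HFD library. For Sertad1, SW 4 had 24.7 CPM against 17.7 CPM in the next SW library; Sertad1 was called in SW against ND without SW 4, and likewise without each of ND 6, HFD 1, HFD 2 and HFD 5. For Mex3b, SW 6 had 8.53 CPM against 15.7 CPM in the next SW library; Mex3b was called in SW against ND without SW 6, and likewise without each of ND 6 and HFD 1. HFD 1, which set Cd69 apart in HFD, was not marked, but it fell only just short.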

How the results depend on the processing

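The 2 calls in HFD against ND, Csrnp2 and Mex3b, were made under every alternative run, except that Mex3b was not called within replicates 3 to 6. The number of the 40 genes called in HFD against ND was 7 with DESeq2, 6 with the replicate sets as a factor, 5 with Fos as a covariate and 5 without both HFD 1 and HFD 4, and 2 to 5 in fits without 1 library (5 without HFD 1, 4 without each of SW 2, SW 6 and HFD 2). In SW against ND it was 4 with DESeq2, 1 with no filter, 2 with the replicate sets, 1 with Fos as a covariate and 1 without both libraries, and 0 to 2 without 1 library (2 without each of ND 6, HFD 1 and HFD 5, and 1 without each of SW 4, SW 6 and HFD 2). In SW against HFD it was 2 with DESeq2, 1 with no filter, 1 with the replicate sets, 1 within replicates 3 to 6 and 1 without both libraries, and 0 to 2 without 1 library (2 without HFD 1, 1 without SW 6). For any difference it was 3 within replicates 3 to 6 and 8 with Fos as a covariate, and 2 to 7 without 1 library (2 without ND 5, 3 without each of ND 3, ND 4, SW 5 and HFD 6). Over all 13690 genes, calls in HFD against ND numbered 222 as reported, 535 with the replicate sets and 233 with Fos as a covariate. Without both libraries, where 13880 genes passed the filter, they numbered 230. In the same order, calls in SW against ND numbered 2, 22, 5 and 14, and in SW against HFD 17, 116, 29 and 28. With no filter, 31 and 53 of 28676 genes were called in these 2 comparisons. Within replicates 3 to 6, 23 of 13706 genes were called in SW against HFD and 134 for any difference. For any difference, 123 genes were called as reported and 148 with Fos as a covariate. Over all genes, the calls in HFD against ND ran from 89 to 301 without 1 library. They ran from 0 to 16 in SW against ND, from 0 to 44 in SW against HFD and from 62 to 220 for any difference. Each of these 4 counts was highest without HFD 1. The causes were not tested.

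With the replicate number as a block, 7 of the 40 genes were called in HFD against ND, 4 in SW against ND, 1 in SW against HFD and 7 for any difference. Calls over all genes were also more with the block, at 598, 49, 138 and 469, against 222, 2, 17 and 123 without it. Beside Csrnp2 and Mex3b, the block fit called Arl4d, Cd69, Dusp2, Errfi1 and Gadd45b in HFD against ND, and it called Arl4d, Gadd45b, Mex3b and Sertad1 in SW against ND. Same-numbered libraries of 2 diets had correlations from -0.031 to 0.219, over 0.1 in 7 of 18 pairs. In 14 of 36 comparisons a library was most like its own number among the 6 libraries of the other diet. That is more often than an even choice among 6 would give. All pairs of replicates 1 and of replicates 2 were among those over 0.1 (0.119 to 0.219). The labels do not say what a number marks and most pairs were not over 0.1, so the numbers were not taken as pairs; whether some libraries share a number for a reason was not tested.

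The median r between the genes kept within 0.241 to 0.292 without 1 library. Among the genes named with a change, the values that changed sign were in comparisons where edgeR did not call the gene. Jun in HFD against ND was -0.006 with DESeq2, -0.004 with RLE factors, -0.011 with no filter, -0.046 with the replicate block, -0.027 with the replicate sets, -0.279 with Fos as a covariate and -0.271 without both HFD 1 and HFD 4, and -0.287 to 0.242 without 1 library. Jun in SW against ND was 0.017 within replicates 3 to 6, and -0.395 to 0.039 without 1 library; in SW against HFD it was 0.026 with Fos as a covariate, 0.064 without both libraries, and -0.392 to 0.081. Within replicates 3 to 6, Egr1 was 0.083 in HFD and 0.020 in SW against ND, Dusp1 was 0.109 in SW against ND and Mex3b 0.028 in SW against HFD. Egr1 in HFD was 0.002 without both libraries, and Zfp36 in HFD -0.041 with Fos as a covariate. For the same genes, the other ranges without 1 library that crossed 0 were -0.125 to 0.342 (Fos, SW against ND), -0.479 to 0.077 (Fos, SW against HFD), -0.160 to 0.021 (Ier2, HFD against ND), -0.206 to 0.152 (Dusp1, SW against ND), -0.005 to 0.066 (Myc, SW against ND), -0.022 to 0.112 (Zfp36, HFD against ND), -0.040 to 0.118 (Gadd45b, SW against HFD), -0.054 to 0.060 (Cd69, SW against ND) and -0.126 to 0.068 (Mex3b, SW against HFD).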
